A study of Oryzias latipes with 6 samples.

Results

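The mitochondrial ribosomal RNAs (rRNAs) of medaka, Oryzias latipes, were represented by 2 of the 24365 gene IDs in the deposited expression files. They were chosen by their IDs and not by their values, though with earlier results of these data known. ENSORLG00000021749 is the small rRNA and ENSORLG00000021751 the large rRNA of the mitochondrial genome. RNA was measured in hand-dissected pieces of the gill filament, the apical domain at its growing tip and the central domain (medial in the methods), to contrast the growing with the differentiated region of the filament. All animals were adults of the Cab strain with no treatment named, and RNA was extracted from many domains collected from several fish, so that a sample describes a pool of dissected tissue and not a single cell type or animal. The 6 libraries were made from 4 RNA samples. Of these, central A and apical B were sequenced as 2 libraries each, while central B and apical A have 1 library each. The study speaks of all libraries of a domain as biological replicates, whereas the labels assign them to samples A and B, and the labels were followed. Libraries of the same RNA were averaged before domains were compared, which left 2 RNA samples per domain.

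The mitochondrial genome is copied into long transcripts that are cut into rRNAs, transfer RNAs (tRNAs) and messenger RNAs (mRNAs). The small rRNA decodes the mRNA and the large rRNA carries the site at which peptide bonds are made, and together with imported proteins they form the mitochondrial ribosome, which in vertebrates translates subunits of the respiratory chain and of ATP synthase. In the gill, cells rich in mitochondria (ionocytes) carry out much of the ion transport. All libraries were made after selection of polyadenylated RNA. The levels given here are therefore those of the rRNA that was kept in that selection, and total mitochondrial rRNA was not measured.

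In the files the small rRNA row spans positions 70 to 1011 of chromosome M (942 bp) and the large rRNA row positions 1084 to 2757 (1674 bp). These lengths are from the start to the end of each row, and exons or coding sequence were not examined. A row of 69 bp, the size of a tRNA gene, precedes the small rRNA from position 1 to 69, and another of 72 bp fills the interval from 1012 to 1083 between the rRNAs. A row of 74 bp from 2758 to 2831 separates the large rRNA from ND1, a subunit of complex I, which starts at 2832. This is the order of vertebrate mitochondrial DNA, and it is by this order and by length that the rows were recognised, since the files pair neither of them with a symbol. The methods name the assembly oryLat2, but the coordinates of the rows matched those of another. They were not compared with an annotation of oryLat2. All 13 mitochondrial mRNA rows had the same start and end in RefSeq's annotation of ASM223467v1, and of 7607 nuclear rows with a RefSeq symbol, 7405 (97.3%) overlapped the gene of that symbol there. If reads were placed on oryLat2, values of nuclear rows may not belong to the genes they are named for, which limits the nuclear genes, the marker rows and the background over all rows given below. Whether the mitochondrial rows, those of the rRNAs included, are affected too was not tested. Neither rRNA row overlapped another row. All 22 rows of tRNA size (66 to 74 bp), the 3 neighbours of the rRNAs included, were listed at 0 in every library. These models are shorter than the fitted fragment length of every library (118 to 215 nt, given below). The 0 may therefore be set by their size and is no evidence that tRNA sequence was absent.

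The levels are FPKM, fragments per kilobase of gene model scaled to the mapped total, and are given with the bounds of the 95% interval in the files, which cover counting error only. The mapped total behind them was fitted to the interval bounds. It was 53500000 to 79100000 fragments in the central and 24400000 to 51100000 in the apical libraries. Every apical library thus lay below every central library, and depth cannot be told apart from domain. The mapped total was lowest in apical A. Only 4.75% to 5.41% of it lay in gene models. The fitted fragment length was 118 nt in apical B library 1, 122 nt in apical A and 207 to 215 nt in the other 4 libraries. The methods describe single-end reads, so this length may be a setting of the software rather than a measurement.

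The small rRNA was found at similar levels in most libraries of both domains. In the central tissue it was at 229 FPKM (224 to 234) in central A library 1, at 160 (157 to 164) in central A library 2 and at 136 (132 to 139) in central B. The apical libraries had 107 FPKM (102 to 111) in apical A, 148 (144 to 152) in apical B library 1 and 162 (157 to 167) in apical B library 2. Central A library 1 was the highest and apical A the lowest, and the other 4 libraries lay close together with the domains intermixed. Between 2170 and 9163 fragments stood behind each value, so that the counting intervals were narrow beside the spread between libraries of a domain.

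Over RNA samples the mean level of the small rRNA was 165 ± 41.5 FPKM for central and 131 ± 34.1 FPKM for apical tissue (SD, n = 2). The log2 difference of apical minus central, on the scale of log2(FPKM + 1), was -0.31 with a standard error of 0.30 (limma, adjusted p = 0.788 over 2984 rows tested). The apical B sample, at 155 FPKM, exceeded central B, at 136 FPKM. The difference was about as large as its standard error and did not pass limma's test. An exact two-sided permutation test over the 4 samples gave p = 0.667. Its smallest p with 2 against 2 samples is 0.333, so that it could not pass. Whether samples A and B came from separate animals is not stated, and the p-values therefore reflect only how far these RNA samples vary, which may be technical. In bulk tissue, fewer cells or mitochondria of a kind and less RNA in each cannot be told apart.

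The large rRNA was higher than the small in every library. In the central tissue it was at 641 FPKM (636 to 647) in central A library 1, at 368 (364 to 372) in central A library 2 and at 294 (290 to 298) in central B. The apical libraries had 182 FPKM (178 to 187) in apical A, 282 (278 to 285) in apical B library 1 and 301 (296 to 306) in apical B library 2. As for the small rRNA, central A library 1 stood above and apical A below all others, and the intervals of central B and apical B library 2 overlapped. Between 6820 and 50729 fragments lay behind a value.

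**Figure D1:**
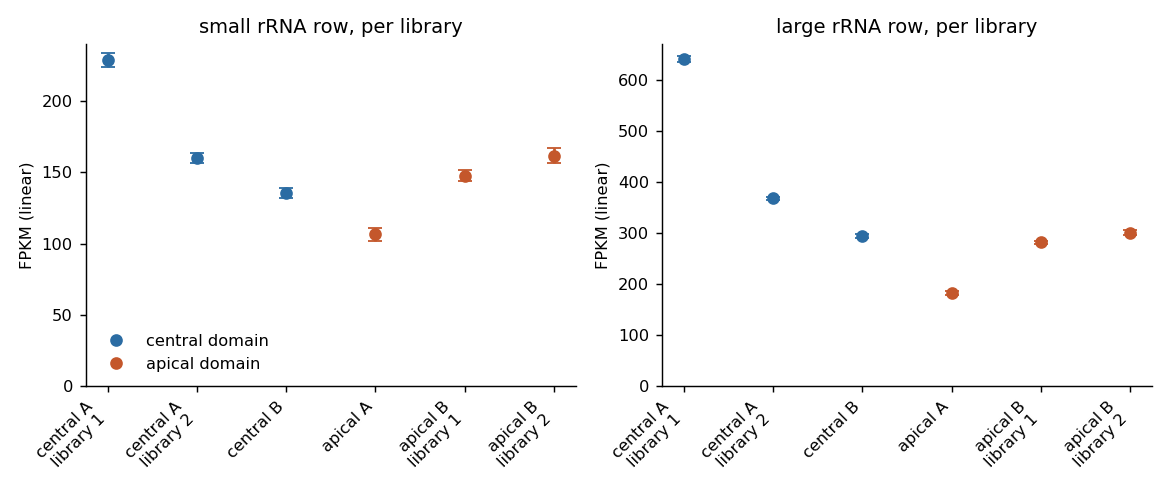
FPKM (linear axis from 0) of the small and the large rRNA in each of the 6 libraries, with bars for the deposited 95% interval and colours for the domain. In both panels central A library 1 (229 and 641 FPKM) is highest and apical A (107 and 182 FPKM) lowest, while the other 4 libraries of the domains intermix.

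Its mean was 399 ± 149 FPKM for central and 237 ± 77.1 FPKM for apical tissue (SD, n = 2), a ratio of means of 1.69. The log2 difference was -0.69 with a standard error of 0.38 and did not pass limma's test (adjusted p = 0.735). By sample, central A was at 505 FPKM and central B at 294 FPKM, while apical A was at 182 FPKM and apical B at 291 FPKM. The domains thus just failed to overlap at the level of samples, with central B and apical B nearly level. For 2 against 2 samples the smallest two-sided p of an exact permutation test is 0.333, which the large rRNA reached. Without central A the log2 difference was -0.34 and without apical A -0.36, so that it rested on both of these samples.

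As background, limma called 5 of the 2984 rows lower in the apical domain (0.168%) and 0 higher (0%), with 172 lower and 51 higher at an unadjusted p under 0.05. At that unadjusted threshold the rows in either direction made up 7.47%. Neither rRNA was called, adjusted or unadjusted. The libraries of the domains were fully separated with apical below central in 13.9% of the rows and with apical above in 9.68%, and neither rRNA was among these. The log2 differences of the large and the small rRNA were at the percentiles 4.12 and 12.1 of all rows tested, where the median was 0.00.

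Among the mitochondrial rows the rRNAs lay in the middle and lower part of the range. By domain mean, the large rRNA ranked 8 and the small rRNA 12 of 15 in both domains. The row with the highest level in both was COX3, a subunit of complex IV, at 6671 FPKM (central mean) and 6590 FPKM (apical mean), followed by CYTB, COX1, COX2, ND4 and ND6. The neighbours of the large rRNA were ND4L and ND5, subunits of complex I. In the central domain ND4L was at 508 ± 161 and ND5 at 249 ± 19.9 FPKM, and the large rRNA was at 399 ± 149. Its samples overlapped those of ND4L, while both exceeded both samples of ND5. In the apical domain ND4L and ND5 were at 341 ± 71.4 and 214 ± 18.3 FPKM, and the samples of the large rRNA, at 237 ± 77.1, overlapped those of both.

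The small rRNA came next below ATP6, a subunit of ATP synthase, in the central domain and below ND1 in the apical domain. ATP6 was at 215 ± 79.7 FPKM in the central domain, which overlaps the small rRNA's 165 ± 41.5. ND1 was at 204 ± 10.8 FPKM in the apical domain, where both samples exceeded both of the small rRNA. Below the small rRNA came ND2, with central and apical means of 38.3 and 37.1 FPKM, which was well outside its spread. FPKM allow for the length of the model, least well for the 2 shortest mRNA rows, ATP8 and ND4L, whose values depend most on the fragment length. They do not allow for how far each RNA was kept in the selection of polyadenylated RNA. The ranks therefore describe the selected RNA and not the relative abundance of rRNA and mRNA in the tissue.

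**Figure D2:**
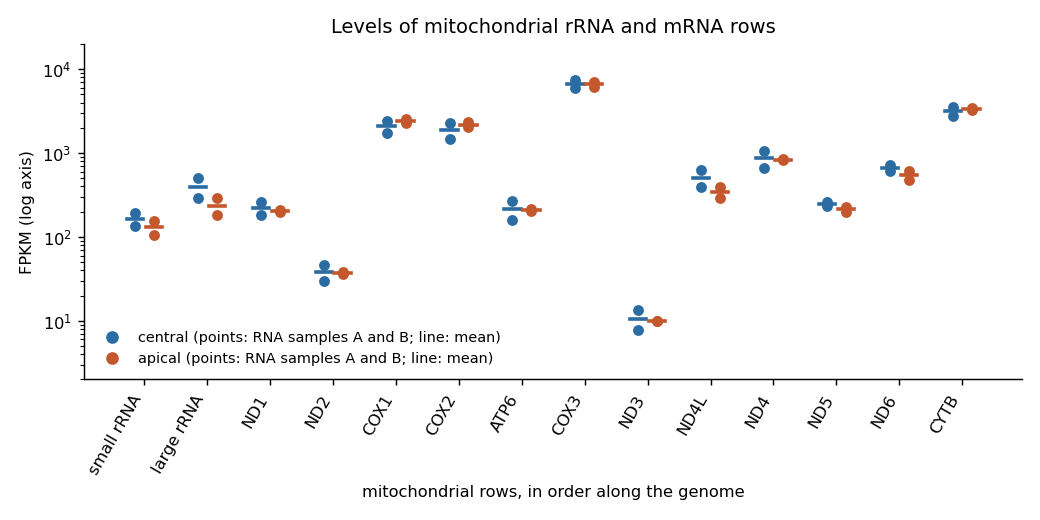
FPKM (log axis) of the rRNA rows and of 12 mitochondrial mRNA rows in order along the genome, with points for RNA samples A and B of each domain and lines for their mean. The mean of the large rRNA was 399 FPKM (central) and 237 FPKM (apical) and that of the small 165 and 131 FPKM, differences that did not pass the test.

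Both rRNAs together made up 0.111% of mapped fragments in central A library 1, 0.0659% in central A library 2 and 0.0535% in central B. They made up 0.0368% in apical A, 0.0563% in apical B library 1 and 0.0552% in apical B library 2. Compared with all rows of the files by FPKM, the large rRNA ranked between 11 and 22 and the small rRNA between 25 and 35 over the libraries. Both were thus among the rows with the highest values in every library.

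Of the 14 mitochondrial rows tested, the large rRNA had the lowest log2 difference, ND4L the next (-0.56) and the small rRNA the third lowest. The 12 mRNA rows tested ranged from -0.56 to 0.26 (COX2, a subunit of complex IV) with a median of 0.02, and 0 of them passed limma's threshold (0 at an unadjusted p under 0.05).

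The ratio of the large to the small rRNA is independent of a factor that scales a whole library. It was 2.80 (95% counting interval 2.74 to 2.87) in central A library 1, 2.30 (2.25 to 2.35) in central A library 2 and 2.17 (2.11 to 2.23) in central B. The apical libraries had ratios of 1.71 (1.63 to 1.79) in apical A, 1.91 (1.85 to 1.96) in apical B library 1 and 1.86 (1.80 to 1.93) in apical B library 2. Every central library had a higher ratio than every apical library, and the intervals of the nearest libraries, central B and apical B library 1, did not meet. Those of the 2 libraries of central A, made from the same RNA, did not meet either. Counting intervals that do not meet are therefore no measure of a difference between domains. Over RNA samples the central ratios were 2.60 (A) and 2.17 (B) and the apical ratios 1.71 (A) and 1.88 (B).

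The domain means were 2.38 ± 0.304 for central and 1.80 ± 0.122 for apical (SD, n = 2), with a log2 difference of -0.40. The samples did not overlap, and the exact two-sided permutation test gave p = 0.333, the smallest that this test allows with 2 against 2 samples, so that it cannot reach 0.05. Leaving out 1 sample at a time gave log2 differences of -0.53 to -0.27. The authors' own domain means, from a separate Cuffdiff run described at the end, gave the reverse order, with ratios of 0.361 (central) and 2.73 (apical). A ratio of mitochondrial rows that separates the libraries of the domains was not rare here. Of the 91 pairs of the 14 rows above 0 in every library, 26 did so (28.6%), and of the 28 pairs of rows of at least 600 bp without overlap with other rows, 11 did (39.3%).

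**Figure D3:**
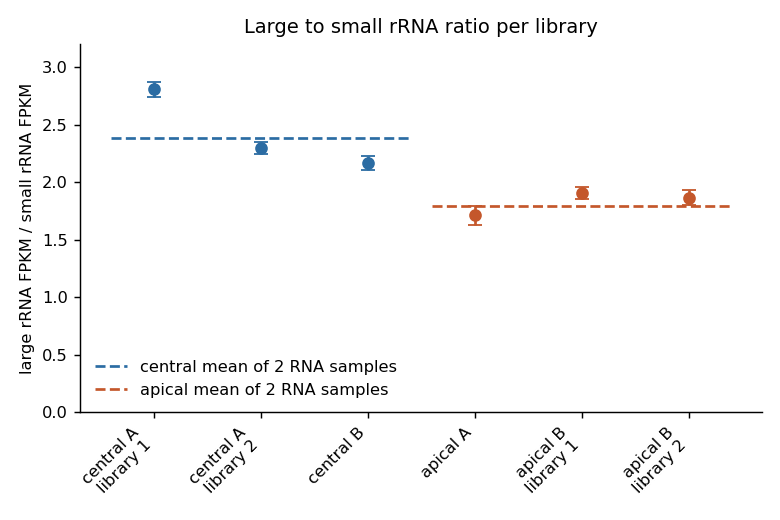
Ratio of large to small rRNA FPKM (linear axis from 0) in each library, with bars for the 95% counting interval and dashed lines for the mean of the 2 RNA samples of a domain (2.38 central, 1.80 apical). The 3 central libraries lie between 2.17 and 2.80 and the 3 apical libraries between 1.71 and 1.91.

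The ratio also depends on how a fragment is counted against model length. As fragments, with no length correction, the ratio ranged from 4.30 to 5.73 in the central and from 3.14 to 3.63 in the apical libraries, again without overlap. Per kilobase of the whole model it ranged from 2.42 to 3.22 and from 1.77 to 2.04. Among the 4 libraries with a fitted fragment length of 207 to 215 nt, which include 1 apical library, the log2 difference was -0.33. Apical B library 1 and library 2, of 118 and 215 nt, differed 1.02-fold in the ratio.

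Relative to mitochondrial mRNA, the small rRNA row was at about 1% of the summed FPKM of the 13 mRNA rows. It was at 1.38% in central A library 1, 0.746% in central A library 2 and 0.957% in central B. The apical values were 0.666% in apical A, 0.884% in apical B library 1 and 0.847% in apical B library 2. The libraries of the domains overlapped, since central A library 2 lay below both libraries of apical B. Over RNA samples the level was 0.990% ± 0.0462 for central and 0.765% ± 0.140 for apical tissue (SD, n = 2), a log2 difference of -0.38 (exact permutation p = 0.333). With the median of the mRNA rows, which by its value is the ND4L row, in place of their sum the log2 difference turned to 0.22.

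The large rRNA was at 3.87% of the summed mRNA FPKM in central A library 1, 1.71% in central A library 2 and 2.07% in central B. It was at 1.14% in apical A, 1.68% in apical B library 1 and 1.58% in apical B library 2. All central libraries were above all apical libraries. A separation in either direction was seen in 28.6% of the 91 ratios of 2 mitochondrial rows given above. For the large rRNA as a percent of mRNA the gap, between central A library 2 and apical B library 1, was narrow. The means over RNA samples were 2.36% ± 0.411 and 1.38% ± 0.345 (SD, n = 2), with a log2 difference of -0.79 and again the smallest p of the exact permutation test, 0.333. For both rRNAs summed the means were 3.35% ± 0.457 and 2.15% ± 0.486, the log2 difference -0.65 and the exact p 0.333, with libraries that overlapped.

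**Figure D4:**
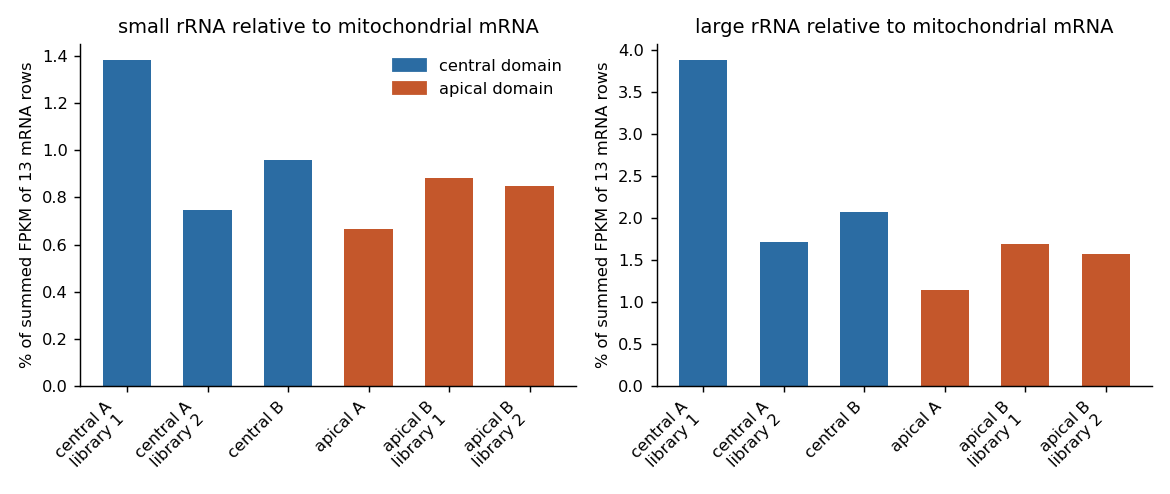
Small and large rRNA FPKM as a percent of the summed FPKM of the 13 mitochondrial mRNA rows (linear axes from 0), 1 bar per library, coloured by domain. Central A library 1 stands above the rest (1.38% and 3.87%), and only for the large rRNA do all central bars exceed all apical bars.

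Set against each mRNA row on its own, the large rRNA had a lower ratio in the apical domain for 12 of 12 rows, with log2 differences of -0.98 to -0.19 and a median of -0.73. In 4 of these (33.3%) the libraries did not overlap, those with COX1, COX2, COX3 and CYTB. This share was near the 28.6% over all 91 pairs of mitochondrial rows given above. The small rRNA had a lower ratio for 11 of 12 rows, from -0.58 upwards, and a higher one with ND4L (0.22), and its libraries overlapped for all 12. These ratios share the rRNA and the libraries and are not independent of each other. The counts of rows restate the ranks of the log2 differences given above and add no support to them. There no mRNA row lay below the large rRNA and only ND4L lay below the small. Against ND1, the nearest mRNA downstream, the large rRNA was at 3.0 and 1.21 in the libraries of central A, 1.61 in central B, 0.861 in apical A and 1.50 and 1.47 in those of apical B. For this neighbour the domains overlapped.

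The libraries made from the same RNA show how far these levels move without any difference in tissue. In central A, library 1 over library 2 was 1.43 for the small and 1.74 for the large rRNA, whereas 11 of the 12 mRNA rows above 0 in every library were lower in library 1 (0.635 to 1.09, median 0.774, the exception being ATP6). The short row of ATP8, listed at 0 in the other 4 libraries, was also higher in library 1, at 3.26 against 1.10 FPKM. The large rRNA as a percent of mRNA thus differed 2.26-fold and the small 1.85-fold between libraries of 1 RNA. This was more than between domains, where means of log2 values differed 1.72-fold and 1.30-fold. The ratio of large to small differed 1.22-fold, against 1.32-fold between domains, again by means of log2 values. In apical B these 12 mRNA rows (0.512 to 0.934), the small rRNA (0.914) and the large rRNA (0.936) were lower in library 1. There the large rRNA as a percent of mRNA differed 1.07-fold. Both libraries of central A had a fitted fragment length of 209 nt.

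**Figure D5:**
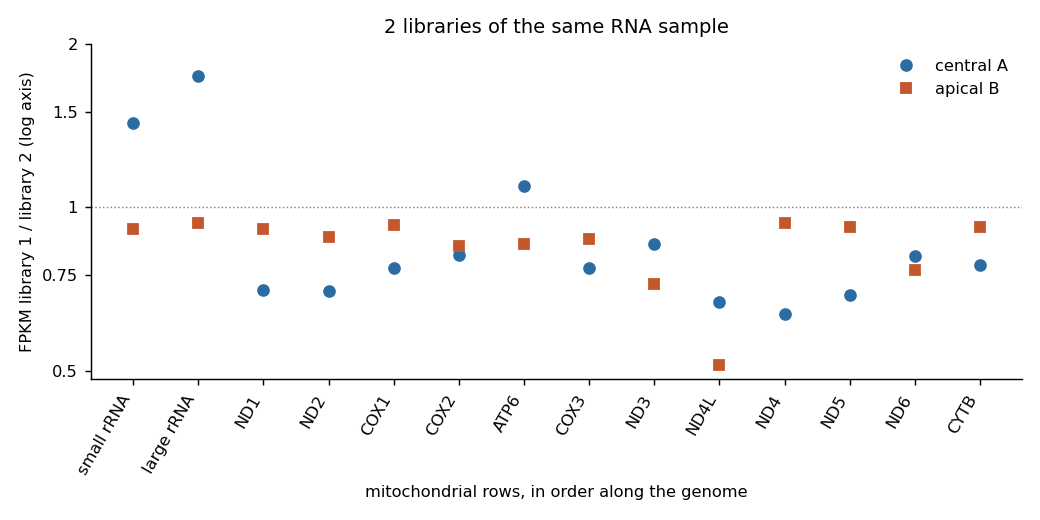
FPKM in library 1 over FPKM in library 2 (log axis) for the rRNA rows and the 12 mRNA rows above 0 in every library (ATP8 is not drawn), for central A (circles) and apical B (squares), with a dotted line at 1. In central A the rRNAs lie above the line (1.43 and 1.74) and 11 of these 12 mRNA rows below it, while in apical B all rows drawn lie below it.

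The rRNAs followed each other closely over the libraries. Likeness was ranked by Pearson r of log2 FPKM among 228 rows at 10 FPKM or more in every library. By this measure the row most like the small rRNA was the large rRNA (r = 0.972, Spearman rho 0.886, over 6 libraries), and the reverse held too. These are descriptions over points that share RNA and depth. Next for both came gpr182, named for an atypical chemokine receptor, with r = 0.964 to the small and 0.969 to the large rRNA, and ENSORLG00000020157, which has no symbol (0.927 and 0.952). The small rRNA was then followed by ENSORLG00000024164 (0.880) and tmem234 (0.859), a transmembrane protein, and the large by ENSORLG00000030459 (0.884) and ENSORLG00000003416 (0.879). The mitochondrial mRNAs were less like the small rRNA, from 0.084 for CYTB to 0.706 for ATP6. By the same r, ATP6 was also the mRNA most like the large rRNA (0.657). By Spearman rho, some of the rows named here were closer to an rRNA than the other rRNA was. They were ENSORLG00000024164 (rho 1) and tmem234 (0.943) for the small rRNA. For the large rRNA they were gpr182 and ENSORLG00000020157 (rho 1 each).

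The nuclear genes that make the protein part of the mitochondrial ribosome did not pass the test as rows. Of 77 rows named for mitochondrial ribosomal proteins, 18 were listed at 0 in all libraries and 12 were high enough to be tested, and limma called 0 higher and 0 lower (1 and 1 at an unadjusted p under 0.05). Their median log2 difference was 0.06, beside 0.00 for all rows tested. MRPL49, of the large subunit, had a central mean of 5.60 and an apical mean of 11.2 FPKM (log2 difference 0.91, standard error 0.23, limma adjusted p = 0.525). For mrpl35, also of the large subunit, the means were 2.21 and 1.01 FPKM (log2 difference -0.65, standard error 0.16, limma adjusted p = 0.498). For mrps10, of the small subunit, they were 5.28 and 6.71 FPKM (log2 difference 0.32, standard error 0.12, limma adjusted p = 0.669). Most of these rows were far below the rRNAs, with a median over the list of 0.0297 FPKM. Because genes of a particle that every cell needs are listed at 0, these values may not describe the nuclear genes well.

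Of 47 rows named for factors of mitochondrial DNA replication, transcription, protein turnover, rRNA processing, modification and ribosome assembly, 8 were listed at 0 in all libraries and 7 were tested, with 0 called in either direction by limma (1 higher and 0 lower at an unadjusted p under 0.05). Their median log2 difference was -0.04. That row was polg, the mitochondrial DNA polymerase, which copies the genome and does not make rRNA. It had a central mean of 4.09 and an apical mean of 5.84 FPKM (log2 difference 0.44, standard error 0.13, limma adjusted p = 0.593). For hsd17b10, a subunit of the enzyme that trims tRNAs out of mitochondrial transcripts, the means were 1.41 and 1.78 FPKM (limma adjusted p = 0.743). For gtpbp10, a GTPase of large-subunit assembly, they were 0.508 and 5.73 FPKM (limma adjusted p = 0.743), with apical A alone at 11.0 FPKM.

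Of rows named for markers of ionocytes, the mitochondria-rich cells, 0 passed the test. Of the markers chosen, foxi3a, atp1a1a.1, atp6v1aa and atp6v0ca had no row under these symbols. The summed level of the 7 rows found was 19.4 to 21.2 FPKM over the central and 16.3 to 17.0 FPKM over the apical libraries. Of all rows tested, 13.9% were likewise lower in every apical than in every central library. The sum rested on the 3 rows that were tested, foxi1, slc9a3.2 and atp1b3a, with log2 differences of -0.23, -0.30 and -0.18. Of these, limma called 0 (0 at an unadjusted p under 0.05). The rows of slc12a2, atp1b1b and foxi3b, among the defining markers, were listed at 0 in every library, and cftr went the other way at a low level, 0.225 to 0.339 FPKM in the central and 0.274 to 0.369 FPKM in the apical libraries, which overlapped. Whether the share of such cells plays a part in the rRNA levels was not tested. For the endothelial and pillar cell markers the summed level over 6 rows was 8.40 to 9.92 FPKM over the central and 9.52 to 11.0 FPKM over the apical libraries, which overlapped. Their tested rows went both ways. The apical level was higher for plvapa (log2 difference 0.26) and aplnr2 (0.56, with apical A alone at 2.58 FPKM) and lower for edn1 (-0.16), and limma called 0 of them. For pavement and epithelial markers the sums over 8 rows were 13.1 to 14.5 and 13.6 to 16.2 FPKM, which also overlapped. Rows of erythrocyte and chondrocyte markers (4 each) summed to at most 2.33 FPKM in any library.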

How the data were processed

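The authors mapped reads to oryLat2 with HISAT2 and made FPKM with 95% bounds per library in Cufflinks 2.2.1. Not given in the sources used here are HISAT2's version and the annotation. The deposited Cuffdiff table holds FPKM means per domain, used only as the authors' means, and the authors' fold change, test statistic, p-value and q-value, which were not used.

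Each file held 24369 rows, and 4 IDs on 2 rows were summed. Fragment numbers were derived from the upper bound (FPKM plus 2 standard deviations), and mapped totals and fragment lengths from 6 mitochondrial mRNA rows free of overlap and 600 bp or longer. Between 0.5 and 10 fragments, 48.3% to 50.0% of the values were whole within 0.02, so no count test was run. Intervals cover counting error only, since PCR copies of 1 molecule are not independent.

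For limma 3.58.1 in R 4.3.3 (trend, Benjamini-Hochberg, threshold 0.05), each library was scaled by its median of ratios (factors 0.973 to 1.03). The log2(FPKM + 1) values were then averaged over libraries of 1 RNA. Tested were the 2984 rows with a sum of both domain means of 2 FPKM or more. Ratios used deposited FPKM, averaged over libraries of 1 RNA first. They were compared by exact permutation over RNA samples in Python 3.11.15. The fit was tried on simulated data with log2 changes much larger than those of the rRNAs. That run does not show how the fit performs at the size seen here. Named are the rRNA rows, the mitochondrial rows and, for each rRNA, the 5 most similar rows of at least 10 FPKM in every library. From the lists of ribosomal proteins, of factors and of ionocyte and of endothelial and pillar markers, the 3 tested members with the smallest p are named. Tested members of the pavement and epithelial, erythrocyte and chondrocyte lists are not named. The row of cftr and the other ionocyte rows not tested were named after their values were seen. The members, lists and rules were chosen with earlier results of these data known.

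The alternatives were other pseudocounts and minimums, unscaled or quantile-normalised FPKM, 6 libraries as independent samples, 1 library per RNA, fragments in place of FPKM, other mRNA denominators, a replicate block and each sample left out in turn. A further 2 denominators, fragments per kilobase of mRNA rows without overlap and ND1 alone, were added after the data were seen.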

Additional observations from a re-analysis of the deposited data

How the results depend on the processing

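The log2 differences (apical minus central) stayed below 0 under all 15 alternatives for the small rRNA (-0.56 to -0.04, limma adjusted p at least 0.580). They did so too for the large rRNA (-1.04 to -0.19, 15 alternatives, limma adjusted p at least 0.384). Neither rRNA passed limma's threshold. For both rRNAs the difference nearest 0 came from quantile-normalised FPKM, so that its size depends on the scaling. The ratio of large to small also stayed below 0 (-0.53 to -0.27, 11 alternatives). The same held for the large rRNA (-1.04 to -0.19, 15 alternatives) and both rRNAs (-0.89 to -0.06, 15 alternatives) as a percent of mRNA. The ratio and percents were tested by exact permutation only. Its smallest p was 0.1 with 6 libraries as independent samples and at least 0.333 otherwise, so that it could not reach 0.05 under any alternative. The small rRNA as a percent of mRNA was below 0 under 14 of 15 and turned to 0.22 with the median of the 13 mRNA rows in place of their sum. That median is the ND4L row, against which the small rRNA had the same 0.22. Without central A the small rRNA's difference was -0.07 and without apical A -0.05, so that it rests on both samples.

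The count of rows lower in the apical domain, 5, moved to 3 with a pseudocount of 0.1, to 0 with no minimum (413 higher and 741 lower at an unadjusted p under 0.05), to 23 with 6 libraries as independent samples and to 21 with library 1 alone. It ranged from 0 (without apical A, where 22 rows were higher and 104 lower at an unadjusted p) to 20 (without central B) when 1 sample was left out, being 12 without central A and 2 without apical B, and the sample left alone was assumed to vary like the others. The count of rows higher, 0, moved to 5 with 6 libraries as independent samples, and ranged from 0 to 5 (without apical B) with 1 sample left out.

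The letters A and B do not pair the samples by any source, and deviations of the A samples from their domain means correlated at r = 0.0512 over 2984 rows. With the letter as a replicate block the log2 differences were -0.31 for the small rRNA (adjusted p = 0.763) and -0.69 for the large (adjusted p = 0.647), with 5 rows lower and 0 higher (191 lower and 79 higher at an unadjusted p under 0.05). The ratio of large to small then had a log2 difference of -0.40 with an exact p of 0.5, the smallest that 2 pairs allow.

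Counting error was small for the rRNA values, which rest on 2170 fragments or more. Depth was lower in every apical than in every central library, and whether it plays a part in these values was not tested. With 2 RNA samples per domain, differences of the size seen between libraries of 1 RNA could not be told from differences between domains.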

Other observations

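In the deposited table of domain means, which comes from a separate Cuffdiff run, the rRNA rows had other levels and another order. The central and apical means listed there were 12.7 and 2.17 FPKM for the small rRNA and 4.57 and 5.91 FPKM for the large. Means of the libraries were 13.1 and 60.2 times higher for the small rRNA and 87.4 and 40.0 times higher for the large. The ratio of large to small from that table was 0.361 (central) and 2.73 (apical), the reverse of the order in the libraries. For 6 mRNA rows (COX3, ND4L, ND4, ND5, ND6 and CYTB) the table lay above the libraries and for 6 (ND1, ND2, COX1, COX2, ATP6 and ND3) below. The cause was not tested.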
